A study of Mus musculus with 21 samples.

Results

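The comparison was between mouse embryonic stem cells kept for 8 h and for 4 h in the RNA polymerase I inhibitor BMH-21. It took 6 of the 21 libraries of the series: 3 at 4 h and 3 at 8 h, chosen by their titles. It was run over the 14666 of 20900 genes in the deposited table that had a log2 value above 0 in at least 3 of the 21 libraries. All libraries came from E14 cells, an established stem cell line of the 129 strain that was kept in serum with leukaemia inhibitory factor. The cells were plated on the day before treatment and then given fresh medium with 1 µM BMH-21 or 1 µM CX-5461, another RNA polymerase I inhibitor, and poly(A) RNA was sequenced after 2, 4 and 8 h and from untreated cells (0 h). No genotype or transgene differed between groups. Each of the 7 groups had 3 libraries. Nothing in the labels says that these came from separate cultures, so the p-values measure only the spread between these libraries, which may be technical. There was no untreated group at 4 or 8 h, so the time in BMH-21 and the time since the medium change cannot be told apart.

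RNA polymerase I makes the precursor of most ribosomal RNA in the nucleolus. Blocking it disturbs the nucleolus and, through free ribosomal proteins that hold back the ubiquitin ligase Mdm2, stabilises p53. In mouse embryonic stem cells the nucleolus also holds the silent Dux locus. Dux is a transcription factor of the 2-cell embryo that switches on the Zscan4 genes and other genes of that stage, and stem cells that pass briefly through such a state are called 2-cell-like.

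Levels are given here as centred log2 values: the deposited log2 value minus the median of its library over the genes tested, plus 4.371, the mean of those medians. They are not divided by transcript length, so they compare libraries and not genes. The 21 libraries held 46604397 to 62812641 reads in the genes of the table. No pair of replicates was as alike as reads drawn at random would be: a chi-square over genes, divided by its degrees of freedom, ran from 2.77 to 31.3. BMH-21 8 h replicate 2 stood apart from its group, at 31.3 and 29.7 against replicates 1 and 3, which gave 5.64 between them. It was also the deepest library and had the largest factor in the deposited values, 1.375 against 1.210 and 1.209. The numbers of the replicates did not pair the libraries of the 2 times.

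From 4 to 8 h, more genes fell than rose on the centred scale, an order that median-ratio factors turned (5586 higher and 4570 lower), and most of the changes of at least 2-fold were rises. At a Benjamini-Hochberg adjusted p under 0.05 in limma, 10334 genes (70.5% of those tested) differed, 4151 higher at 8 h (28.3%) and 6183 lower (42.2%). A change of at least 2-fold was found for 808 genes upward (5.51%) and 354 downward (2.41%). All 3 values at 8 h lay above all 3 at 4 h for 4093 genes (27.9%) and below them for 5903 (40.2%). As deposited, without centring, 2726 genes were higher (18.6%) and 5541 lower (37.8%), and the share of called genes that were higher was 40.2% after centring, 33% as deposited, 55% with median-ratio factors and 45.1% after quantile normalization. Among changes of at least 2-fold, rises outnumbered falls under each of these scalings, by 733 to 451 as deposited, 1043 to 241 with median-ratio factors and 830 to 546 after quantile normalization. The median log2 difference of all genes tested was -0.08 after centring, -0.14 as deposited, 0.05 with median-ratio factors and -0.04 after quantile normalization, and single genes below are to be read against it. Without BMH-21 8 h replicate 2, 10206 genes were called, 4157 higher and 6049 lower.

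The direction of change went with the level of the gene. Of the 682 genes with a mean log2 value of 8 or more over all 21 libraries, 88.1% were lower at 8 h and 4.84% higher, with a median log2 difference of -0.43. The median was -0.24 at a mean of 6 to 8 (67.7% lower and 14.3% higher), -0.08 at 4 to 6 (44.9% and 27.3%), 0.06 at 2 to 4 and 0.09 at 0 to 2. The 982 genes with a mean below 0 had a median of 0.38 with BMH-21 and 0.00 with CX-5461, but the filter admits such a gene through any 3 libraries, those at 8 h of BMH-21 included, so nothing is read from this bin. The genes that rose at least 2-fold had a median level of 0.91 and spanned a median of 36.2 kb in GENCODE M21, those that fell at least 2-fold 2.82 and 17.9 kb, and all genes tested 4.36 and 23.1 kb. The filter bears on low genes that rose, so nothing is read from the level and span of these sets. Protein-coding genes longer than 300 kb had a median log2 difference of 0.14 and those under 10 kb of -0.16, but their median levels differed too (2.21 and 4.02). Lists of abundant genes are therefore given below with the median level of their members and read against the shares at that level.

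**Figure D1:**
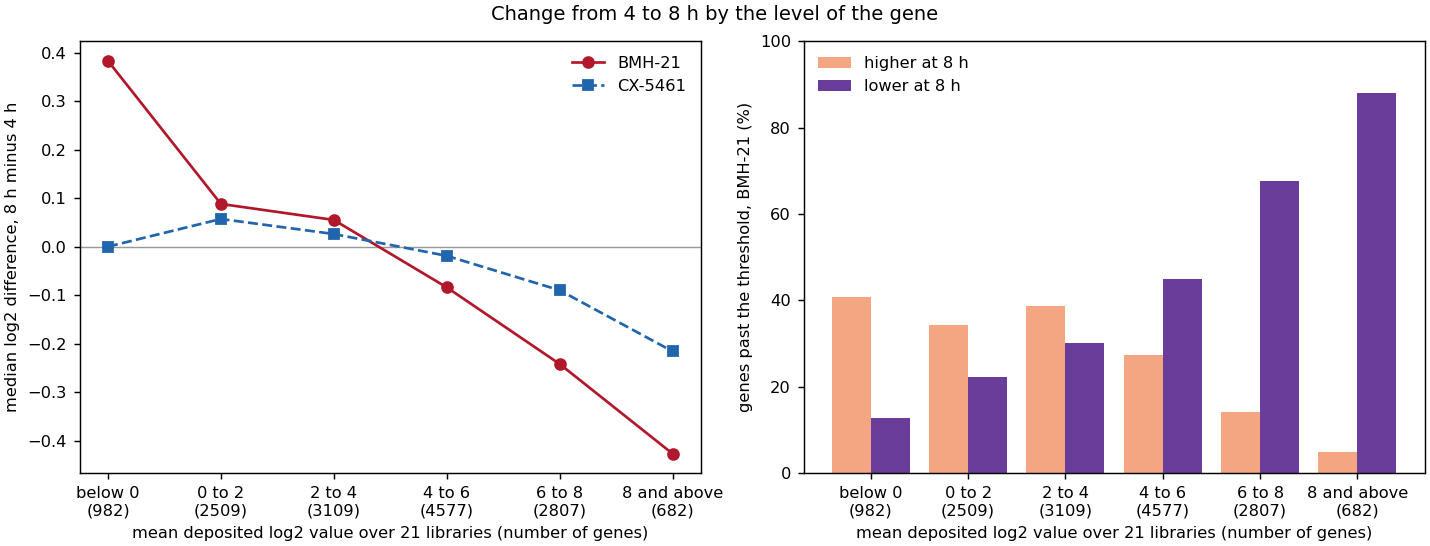
Left, median log2 difference between 8 h and 4 h (vertical axis) in 6 bins of genes by mean deposited log2 value over 21 libraries (horizontal axis), for BMH-21 (circles) and CX-5461 (squares). Right, percentage of genes of each bin past the threshold with BMH-21, higher (light bars) and lower (dark bars). With BMH-21 the median goes from 0.09 at a mean of 0 to 2 to -0.43 in the highest bin, where 88.1% of 682 genes were lower; the filter bears on the lowest bin.

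The Zscan4 genes, a cluster of near-identical genes on chromosome 7 whose products mark the 2-cell stage and 2-cell-like stem cells, rose together between 4 and 8 h, after small rises by 4 h. The 250 bases before the RefSeq start of Zscan4c (GRCm38 chr7:11005495-11005744, plus strand) and Zscan4d (chr7:11166149-11166398, minus strand) are shown because the pair moved together and share almost all of this sequence. TATAAA, the TATA box letters, is in capitals.
Zscan4c: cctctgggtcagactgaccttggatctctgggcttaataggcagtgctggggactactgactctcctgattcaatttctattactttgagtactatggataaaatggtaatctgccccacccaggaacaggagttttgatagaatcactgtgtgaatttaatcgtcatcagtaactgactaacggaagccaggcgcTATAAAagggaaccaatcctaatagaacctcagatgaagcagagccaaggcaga
Zscan4d: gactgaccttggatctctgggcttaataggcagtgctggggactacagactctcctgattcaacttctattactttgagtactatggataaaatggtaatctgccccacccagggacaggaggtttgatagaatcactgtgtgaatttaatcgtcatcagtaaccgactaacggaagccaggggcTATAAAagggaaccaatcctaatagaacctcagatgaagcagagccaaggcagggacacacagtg
The 2 windows were identical at 232 of 239 aligned bases (97.1%). TATAAA, the only motif searched, was looked for on both strands. It began 54 bases before the start in Zscan4c and 65 bases before it in Zscan4d, and 4063 of 32851 promoter windows of this length in the RefSeq table held it (12.4%). The match describes the sequence and does not show a site.

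Zscan4c (chr7:11005745-11010547, plus strand, protein coding) had centred log2 values of 2.73, 2.66 and 2.70 in the 4 h libraries and 4.52, 4.63 and 4.88 in the 8 h libraries. The 2 sets did not overlap, and the 8 h set also lay above the untreated libraries (2.38, 2.20 and 2.14). The log2 difference between 8 h and 4 h was 1.98 (SE 0.12), a 3.95-fold rise, with a limma Benjamini-Hochberg adjusted p of 1.2e-12. Zscan4d (chr7:11161374-11166159, minus strand) had 2.42, 2.11 and 2.04 at 4 h and 3.93, 3.99 and 4.25 at 8 h, a log2 difference of 1.86 (SE 0.12). The reads were 322 to 329 per library at 4 h and 1313 to 1776 at 8 h for Zscan4c, and 205 to 267 and 875 to 1141 for Zscan4d. Zscan4a, Zscan4b and Zscan4f rose by 2.00, 1.90 and 1.91, and in each of the 3 all values at 8 h exceeded all values at 4 h. The 5 genes are so alike that reads may be divided between them, so the 5 values are not independent. In bulk RNA, more cells of a type and more RNA per cell cannot be told apart.

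The values of Dux were -2.60, -2.11 and -3.72 in untreated cells, -0.95, -2.05 and -1.01 at 2 h, 1.60, 1.54 and 1.47 at 4 h and 2.30, 2.57 and 2.83 at 8 h. On the log2 scale most of its increase was thus present at 4 h, though much of its gain in reads came later. At 4 h Zscan4c stood 0.45 and Zscan4d 0.57 above untreated cells, the lowest and highest of the 5 Zscan4 genes. From 4 to 8 h Dux rose by 1.03 (SE 0.32, limma Benjamini-Hochberg adjusted p = 0.0057), on 138 to 150 reads at 4 h and 282 to 428 at 8 h. Dux lies in an array of copies, so its reads are uncertain between them, and its symbol was not matched to the annotation.

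Other genes of the 2-cell embryo followed the Zscan4 genes. Of the 45 on the list 41 were in the table and 35 were tested, of which 33 were higher at 8 h and 2 lower, with a median log2 difference of 1.49 against -0.08 for all genes tested, and 25 rose at least 2-fold. The list holds the Zscan4 and Dux genes above and was drawn up with earlier results of these data known. Most members are low (median level 1.52). Of all genes at a level of 0 to 2, 34.3% were higher and 22.4% lower, and 5.51% of all genes tested rose at least 2-fold. The filter admits a low gene through any 3 libraries, those at 8 h of BMH-21 included, so it can favour low members that rose. The largest rises were those of Gm12794, a gene of the Prame-like family, by 2.89 (SE 0.22), Pramef25 by 2.75, Tdpoz3 by 2.64 and Tmem92, a membrane protein gene, by 2.62 (SE 0.20). Tmem92 had values of -0.04, 0.60 and 0.45 at 4 h and 2.78, 3.03 and 3.08 at 8 h. Tdpoz3 had only 3 to 21 reads per library at 4 h and 61 to 117 at 8 h, and its rise was 0.38, short of the threshold, once values below 0 were set to 0. The 2 that fell were Zfp750 (-0.92), which encodes a factor of epidermal differentiation, and Ddit4l (-0.35). Members left out by the filter stayed at or under 43 reads in all 6 libraries. Among them Zfp352 had 13, 11 and 13 reads at 4 h and 32, 43 and 43 at 8 h, Tdpoz1 1, 2 and 1 and then 6, 10 and 9, and Rfpl4 at most 1 read.

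**Figure D2:**
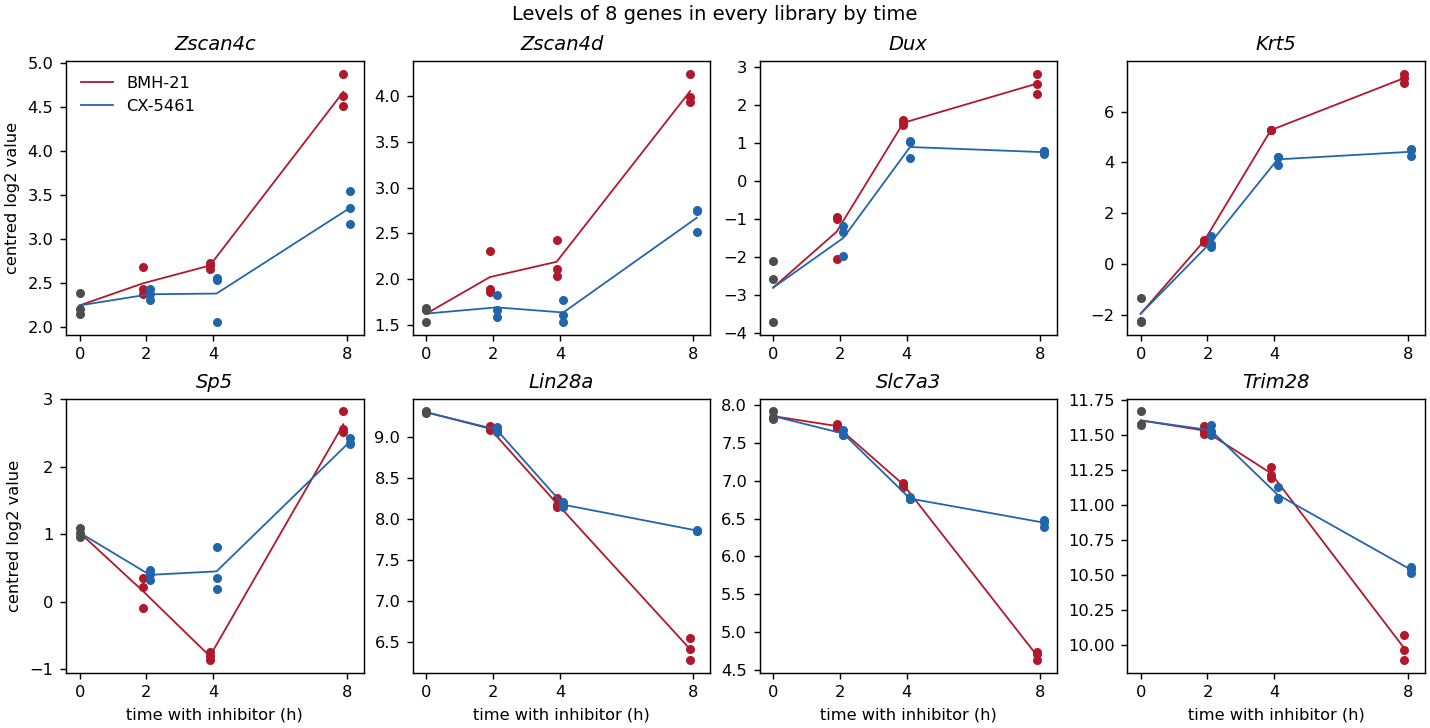
Centred log2 value (vertical axis) of 8 genes in every library at 0, 2, 4 and 8 h (horizontal axis), with BMH-21 in red, CX-5461 in blue and untreated libraries in grey. Each point is 1 library and lines join group means. On this log2 axis Zscan4c and Zscan4d rise mainly after 4 h of BMH-21, Dux and Krt5 mainly before it. The axis shows folds, and in linear units much of the gain of Dux and Krt5 came after 4 h.

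Of 24 genes known to hold Dux silent or to activate it, 16 were lower and 4 higher, with a median log2 difference of -0.35 and a median level of 7.2. This count is near the share of all genes at a level of 6 to 8 (67.7% lower and 14.3% higher) and is no result about these genes as a group, but single members fell far. Lin28a, an RNA-binding protein that holds back let-7 microRNAs and acts with Trim28 and nucleolin at Dux, fell by 1.78 (SE 0.05). Its values were 8.15, 8.26 and 8.16 at 4 h and 6.54, 6.41 and 6.27 at 8 h. Trim28, the corepressor of KRAB zinc finger proteins, fell from 11.19, 11.21 and 11.27 to 9.96, 10.07 and 9.89, a log2 difference of -1.25 (SE 0.04, limma Benjamini-Hochberg adjusted p = 1.3e-16). Nucleolin (Ncl) fell by 0.80. Nucleophosmin (Npm1) fell by 0.82, but quantile normalization gave 0.05, short of the threshold. Dppa2 and Dppa4, a pair that activates Dux, fell by 0.57 and 0.38. Rif1, a repressor of Dux in stem cells, rose by 0.68, and Zmym2 by 0.45.

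The largest rises among genes with a mean deposited log2 value of at least 1 at 8 h were in genes with few reads at 4 h. Cacna1e (chr1:154390731-154884501), which encodes a voltage-gated calcium channel of neurons, had 18, 28 and 24 reads at 4 h and 1123, 1029 and 1287 at 8 h. Its values went from -1.43, -0.84 and -1.03 to 4.29, 3.86 and 4.42, a log2 difference of 5.29 (SE 0.23, limma Benjamini-Hochberg adjusted p = 4.5e-15) and a 39.2-fold rise. Gsg1l (chr7:125878420-126082411), which encodes an auxiliary protein of AMPA glutamate receptors, rose by 4.34 (SE 0.33) from 12 to 26 reads to 377 to 437. Slc2a10, a glucose transporter gene, rose by 3.90 and Sstr1, a somatostatin receptor gene, by 3.80. Sp5 (chr2:70474923-70477729), a zinc finger factor induced by WNT signalling, rose by 3.43 (SE 0.14), from -0.80, -0.74 and -0.86 to 2.82, 2.56 and 2.51. The others of the 12 largest, with clone and model numbers left out, were Galnt18 (3.43), the class IIa histone deacetylase gene Hdac9 (3.30), Tekt4 (3.26), Myo16 (3.20), Spatc1 (3.18), Ano2 (3.17) and Tmem132c (3.11). In all 12 the 3 values at 8 h lay above the 3 at 4 h, as the choice of genes required. Fits of genes with so few reads at 4 h are less certain in size than in direction: leaving out 1 library moved Galnt18 between 2.94 and 3.79.

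Among genes with a mean deposited log2 value of at least 1 at 4 h, the limit for the falls named here, and with symbols that are only a clone or model number left out too, Pax8 had the largest fall. Pax8 (chr2:24420560-24475599), a paired-box factor of thyroid and kidney, fell by 2.74 (SE 0.11), from 1.80, 1.96 and 2.04 to between -1.04 and -0.50. Slc7a3 (chrX:101079210-101086020), a cationic amino acid transporter of stem cells, had 6.96, 6.96 and 6.92 at 4 h and 4.72, 4.73 and 4.63 at 8 h. Its log2 difference of -2.25 (SE 0.04) had the smallest limma Benjamini-Hochberg adjusted p of the genes named here, 3.4e-22. Nr0b1 (Dax1, chrX:86191764-86195947), a nuclear receptor of the pluripotency network that restrains the 2-cell programme, fell from 5.93, 5.96 and 6.01 to 4.01, 3.78 and 3.55, by 2.19 (SE 0.07). Fgf17 (chr14:70636203-70642268), a fibroblast growth factor, fell by 2.34, from 3.67, 3.61 and 3.91 to 1.33, 1.31 and 1.54. Notum, a secreted WNT inhibitor, fell by 2.03 and the receptor gene Notch4 by 1.91. The collagen receptor gene Ddr2 fell by 2.40, Gbp4, an interferon-induced GTPase gene, by 2.09, Atp1a4 by 1.88, Mep1b by 1.81 and Hmga1 by 1.78. Rmrp, the noncoding RNA of RNase MRP, fell by 2.56 (SE 0.66), but its libraries were uneven, with 0.20 in replicate 2 against 1.67 in replicate 1 at 4 h and -1.32 to 0.70 in untreated cells.

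**Figure D3:**
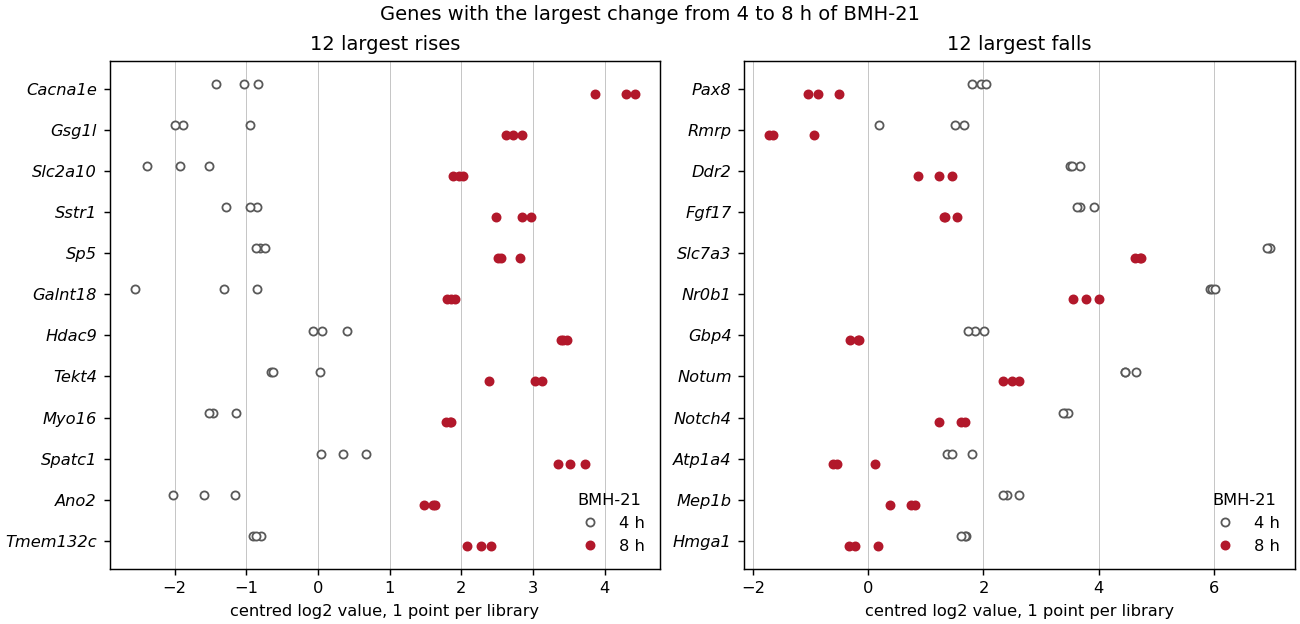
Centred log2 value (horizontal axis) in each BMH-21 library at 4 h (open points) and 8 h (filled points) for the 12 largest rises and the 12 largest falls among genes with a mean deposited log2 value of at least 1 at the higher time. The points of the 2 times do not overlap for any gene, which the choice of genes required.

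Among abundant genes, with a mean log2 value of at least 6 over the 6 libraries, the largest falls were those of Lin28a, Dnmt3b and Bcat1. Dnmt3b (chr2:153649450-153687730), a de novo DNA methyltransferase, fell from 8.67, 8.69 and 8.54 to 6.999, 6.89 and 6.96, by 1.68 (SE 0.04). Bcat1, which starts the breakdown of branched-chain amino acids, fell by 1.62, Trh, the thyrotropin-releasing hormone gene, by 1.59 and Zfp207 by 1.52. Lars2, the mitochondrial leucyl-tRNA synthetase gene, fell by 1.60 (SE 0.38) with a wide spread at 4 h (9.66, 8.56 and 9.73), and 4 h replicate 2 was also the low one for Rmrp. The largest rise among abundant genes was that of Krt5 (chr15:101707070-101712898), the keratin of basal epithelial cells. It had 5.28, 5.27 and 5.26 at 4 h and 7.14, 7.33 and 7.50 at 8 h, a log2 difference of 2.05 (SE 0.17). Agap1, a regulator of membrane traffic, rose by 1.90, Sbsn, a secreted protein of epidermis, by 1.55, and Twsg1, a binding protein of bone morphogenetic proteins, by 1.53. Aldh1l1 of folate metabolism rose by 1.45 and the cartilage matrix gene Matn1 by 1.40.

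The pluripotency genes did not move as one. Of 12 core genes, 7 were lower and 3 higher, with a median of -0.34 and a median level of 8.01, against 88.1% lower for all genes at a level of 8 or more. Pou5f1 (Oct4), the POU factor without which stem cells are not kept, stood at 10.44, 10.48 and 10.59 at 4 h and 9.78, 9.98 and 9.80 at 8 h, a fall by 0.65 (SE 0.05). Utf1, a chromatin protein of stem cells, fell by 1.14. Sox2 rose by 0.33 (SE 0.05), from 7.93, 7.94 and 7.99 to 8.38, 8.26 and 8.22, after having stood at 9.20 to 9.29 in untreated cells. Nanog, another core factor, fell by 0.31 (limma Benjamini-Hochberg adjusted p = 1.5e-05), from 7.21, 7.32 and 7.40 to 7.06, 7.10 and 6.86, and its difference under quantile normalization was -0.09, short of the threshold (adjusted p = 0.13). These steps were small beside the distance of Nanog from untreated cells, which stood at 8.90 to 8.95.

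Of 24 genes of the naive state, the state held by leukaemia inhibitory factor, 13 were lower and 6 higher, with a median of -0.18 and a median level of 6.81, not above the 67.7% lower for all genes at that level, and median-ratio factors gave 10 lower and 9 higher. The falls were large in Nr0b1 (above), in Tcl1, a cofactor of the kinase Akt, by 1.40, and in the transcription factor genes Tfcp2l1, by 1.00, and Esrrb, by 0.84. Klf4 fell by 0.54. Klf2 rose by 0.95 and Spic by 1.20. Of 21 genes of the formative and primed states, through which cells leave naive pluripotency, 10 were lower and 5 higher. Their median was -0.12, and 0.01 with median-ratio factors. At their median level of 5.0, 44.9% of all genes were lower and 27.3% higher, so this count is near the share and no result about the list. The transcription factor genes Zic5, Zic2, Otx2 and Foxd3 rose by 1.56, 1.28, 0.68 and 0.66. All 4 had fallen earlier, Foxd3 to 1.49, 1.41 and 1.53 at 4 h from 5.98, 6.00 and 6.16 in untreated cells, and at 8 h, with 2.39, 1.95 and 2.04, it was still far below them. Dnmt3b, Myrf (-1.64), Lin28b (-1.17) and Tcf15 (-1.13) fell. The machinery of DNA methylation had 8 of 15 genes lower and 1 higher, at a median level of 5.85 and so beside the same shares. Dnmt3l, the partner of the de novo enzymes, fell by 1.18, Gadd45b by 0.80 and the DNA demethylase gene Tet1 by 0.79. Dnmt1, the maintenance enzyme, had a difference of -0.06 that was not past the threshold.

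Markers of other cell types that such a culture could hold were read the same way. Their summed levels are sums over the list of 2 to the power of the centred log2 value, which abundant members dominate. The trophectoderm, primitive endoderm and neural lists had median levels of 2.71, 2.49 and 2.65, where 38.7% of all genes were higher and 30.2% lower. The mesoderm list had -0.03, in the lowest bin, from which nothing is read. No result about these lists as groups is drawn from their counts. The core pluripotency markers summed to 3514.2 to 3743.6 at 4 h and 2668.9 to 2899.4 at 8 h, so the labelled stem cell identity was matched by its markers at both times. Trophectoderm markers, of the outer layer of the blastocyst, summed to 148.1 to 158.8 at 4 h and 296.4 to 318.7 at 8 h, with 7 of 16 members higher and 3 lower. Cdx2, which directs this lineage, rose by 2.62 (SE 0.26) on 17 to 19 reads at 4 h and 118 to 191 at 8 h, Tfap2c by 1.36 (5.72, 5.61 and 5.64 to 7.06, 6.98 and 7.01), Hand1 by 1.23 and Gata2 by 1.08. Eomes (0.10), Krt8 (0.16), Krt18 (0.01), Gata3 (0.26) and Tead4 (0.10), markers of the same lineage, were not past the threshold. Primitive endoderm markers had 6 of 15 higher and 7 lower, with sums of 1086.1 to 1153.2 and 977.0 to 1060.1, and Ttr at no more than 3 reads. Neural markers had 6 of 17 higher and 8 lower (7 and 6 with median-ratio factors), with Insm1, a zinc finger factor of neuroendocrine cells, up by 2.96 (SE 0.12) and Hes3, a Notch-linked repressor, down by 3.25 on 51 to 64 reads at 4 h and 3 to 10 at 8 h, a call that was lost (-0.06) with values below 0 set to 0. Neural sums were 531.7 to 579.1 and 375.5 to 411.5. Mesoderm markers summed to 32.7 to 34.7 and 30.2 to 33.7, with 2 of 11 higher and 1 lower and with Msgn1 and Hand2 at no more than 1 read. Fibroblast markers summed to 833.6 to 874.9 and 636.6 to 694.5, with Col5a1 up by 1.13, Fn1 down by 0.98 and Lum at no more than 2 reads. The part of such cells in the results was not tested.

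Keratins, the intermediate filament proteins of epithelia, rose beyond Krt5. Of 20 keratins on the list, 13 passed the filter and the others were not tested. Of the 13, 9 were higher and 2 lower, with a median of 1.16 and a median level of 3.01. Of all genes at a level of 2 to 4, 38.7% were higher and 30.2% lower. Libraries at 8 h of BMH-21 can admit a low gene, so the filter can favour low keratins that rose. Krt7 rose by 1.84 (SE 0.08), from 3.86, 3.99 and 4.02 to 5.61, 5.96 and 5.82, Krt6b by 2.30, Krt6a by 1.73 and Krt14, the usual partner of Krt5, by 0.51 with overlapping libraries and a call that was lost without 4 h replicate 1. Krt42 fell by 1.17 and Krt17 by 0.94. Krt8 and Krt18, the pair of simple epithelia, were not past the threshold, though Krt8 was with median-ratio factors. Summed levels of the list were 179.5 to 192.7 at 4 h and 363.0 to 434.7 at 8 h.

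Genes of signalling and of the immediate early response changed in both directions, and no result about their lists as groups is drawn. The WNT, BMP and AP-1 lists had median levels of 3.67, 3.41 and 3.29, where 30.2% of all genes were lower and 38.7% higher. The Nodal, ERK and other immediate early lists had 5.83, 5.61 and 5.34, where 44.9% were lower and 27.3% higher. Of 17 WNT targets 9 were lower and 4 higher: Sp5, Cdx2 and Axin2 (0.64) rose, while Notum, Tcf7l1 (-1.38), a repressor at WNT targets, and Ccnd2 (-0.88) fell. Among BMP ligands and Id genes, Id3 and Id1, inhibitors of differentiation, rose by 1.07 and 1.05 and the inhibitory Smad genes Smad7 and Smad6 fell by 0.83 and 0.78, with 5 of 13 higher and 4 lower. Foxh1, the DNA-binding partner of Nodal-activated Smads, fell by 1.24 and Nodal by 0.49, with 6 of 13 lower and 5 higher. Of 18 output genes of ERK signalling, 7 were higher, led by Phlda1 (0.84) and Dusp5 (0.77), and 6 lower, led by Myc (-0.88) and Etv4 (-0.78). In the AP-1 family, 6 of 12 were higher and 4 lower, with Fosl2 up by 2.05, Jund by 1.04, Jun by 0.95 and Atf3 by 0.92, against falls of Fosl1 (-0.56) and Fosb (-0.52). Of 20 other immediate early genes 9 rose and 9 fell. Klf6 rose by 2.02 (SE 0.04), from 4.97, 4.86 and 4.93 to 6.89, 6.96 and 6.96, Ctgf by 1.69, Dusp1, a phosphatase of MAP kinases, by 1.67 and Zfp36, which destabilises messenger RNAs, by 1.16. Nr4a1 (-0.81) and Egr1 (-0.56) fell. In the MYC network Myc fell from 5.85, 5.92 and 5.87 to 4.99, 5.03 and 4.99, while Mxd4 and Mnt, antagonists of MYC, rose by 1.47 and 0.66.

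Genes of the p53 response changed in both directions, and no result about their lists as groups is drawn. The list of p53 and its feedback had a median level of 8.02, where 88.1% of all genes were lower and 4.84% higher. The cell cycle and apoptosis targets had 6.31 and 6.15 (6 to 8: 67.7% lower and 14.3% higher). The repair targets and the BCL2 family had 5.42 and 4.4 (4 to 6: 44.9% lower and 27.3% higher). Of 10 genes of p53 and its feedback, 7 were lower and 2 higher with a median of -0.24, and quantile normalization turned this to 3 and 6 with a median of 0.13. Trp53 itself fell from 9.35, 9.35 and 9.36 to 8.44, 8.43 and 8.36, by 0.94 (SE 0.03). Mdm2, which degrades p53, went from 10.19, 10.16 and 10.12 to a mean of 9.92, with 9.88 the lowest, a log2 difference of -0.24 that quantile normalization turned to 0.17, and at both times lay far above the untreated libraries (6.97 to 7.02). Cdkn1a (p21), an inhibitor of cyclin-dependent kinases, differed by -0.18, with 0.11 after quantile normalization. Of 16 cell cycle targets 7 rose and 7 fell: Ccng2 rose by 1.57 and Ddit4 by 0.70, while Plxnb2 fell by 0.92, Sesn2 by 0.64 and Gadd45a by 0.59. Among 16 apoptosis targets 4 rose and 8 fell, with the cell adhesion gene Perp up by 1.25, the death receptor gene Fas up by 0.92 and the p53 relative Trp73 down by 0.59, whereas Bbc3 (-0.07) and Pmaip1 (-0.06) were not past the threshold. The median of that list was -0.11, and 0.02 with median-ratio factors. Of 13 repair targets 7 fell and 2 rose, and outside the p53 targets 5 of 11 genes of the BCL2 family rose and 4 fell, with Bcl2l1, which protects from apoptosis, up by 0.67 and Bak1, which promotes it, down by 0.79.

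Most messenger RNAs of the machine that BMH-21 inhibits were lower at 8 h. Of 21 genes of RNA polymerase I and its factors, 18 were lower and 0 higher in limma, with a median of -0.39. Their median level was 6.35, and of all genes at 6 to 8, 67.7% were lower with a median of -0.24. The 3 not past the adjusted threshold were Ttf1 (0.01), Polr1a (0.00) and Taf1b (-0.10). Ubtf, the factor that keeps ribosomal DNA open, fell from 7.52, 7.75 and 7.62 to 6.91, 6.84 and 6.69, by 0.81 (SE 0.05), Polr2e, a subunit shared by the 3 polymerases, by 0.93 and Znrd1, a polymerase I subunit, by 0.67. Polr1a, the largest subunit, stood at 8.34, 8.45 and 8.32 and then at 8.40, 8.25 and 8.44, and its difference was 0.12 with median-ratio factors and 0.37 after quantile normalization. Rrn3, the initiation factor, fell by 0.24, which quantile normalization turned to 0.07, short of the threshold. With median-ratio factors 16 of the list were lower and 1 higher, and after quantile normalization 15 and 2. RNA polymerase III, which makes transfer RNA, had 18 of 22 genes lower and 1 higher at a median level of 5.93. With median-ratio factors 8 of the 22 were lower and after quantile normalization 12, so this count depended on the scaling. The level lies near the edge of a bin: of all genes at 4 to 6, 44.9% were lower, and at 6 to 8, 67.7%. The factors of P-TEFb and elongation, at a median level of 6.4, had 13 of 22 lower and 3 higher, not above the 67.7% lower of all genes at that level.

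Genes of ribosome assembly were mostly lower as well, as were abundant genes in general. Of 20 nucleolar core and snoRNP proteins 19 were lower and 0 higher in limma, with a median of -0.58 and a median level of 8.07 (all genes at 8 or more: 88.1% lower, median -0.43): Dkc1, the pseudouridine synthase, fell by 1.12, Tcof1 by 1.03 and Nop58 by 1.02. Fibrillarin (Fbl), the methyltransferase, fell by 0.30, and had 0.06 after quantile normalization, short of the threshold. For assembly of the small subunit 32 of 37 were lower and 2 higher (median -0.37, median level 7.05), led by Emg1 (-0.90). For that of the large subunit 37 of 40 were lower and 1 higher (median -0.49, median level 7.5), led by Noc2l (-1.04) and Bop1 (-0.91). Of all genes at a level of 6 to 8, 67.7% were lower and 14.3% higher, with a median of -0.24. The ribosomal proteins changed less: 74 of 77 were lower, in a narrow range from -0.48 to -0.09 with a median of -0.29, against a median of -0.43 for all genes with a level of 8 or more. Their direction depended on the scaling, since quantile normalization gave 38 higher and 3 lower with a median of 0.10. Rpl3 went from 10.88, 10.90 and 10.99 to 10.38, 10.55 and 10.38.

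Genes of protein quality control differed in direction between cytosol and endoplasmic reticulum. All 31 proteasome subunits tested were lower (median -0.53, median level 7.81), from -0.28 for Psmb2 to -0.82 for Psmc4 and Psmc5. Of all genes at a level of 6 to 8, 67.7% were lower, with a median of -0.24. With median-ratio factors and quantile normalization 31 and 23 of the subunits were lower. Of 24 heat shock proteins and cytosolic chaperones 20 were lower and 1, Hspb8 (0.41), higher, with a median of -0.64 and a median level of 8.64, where 88.1% of all genes were lower with a median of -0.43. The chaperonin subunit gene Cct3 fell by 0.96, Dnaja1 by 0.92 and the inducible Hspa1b and Hspa1a by 0.90 and 0.89. In contrast, 13 of 20 genes of the unfolded protein response of the endoplasmic reticulum were higher and 2 lower (median 0.33, median level 6.25), and under the other scalings 10 to 18 were higher and 1 lower. Herpud1, of the degradation machinery, rose by 1.13, from 3.24, 3.07 and 3.07 to 4.14, 4.39 and 4.23. The transcription factor gene Xbp1 rose by 0.94, the ubiquitin ligase gene Syvn1 by 0.65 and Hspa5 (BiP), the main chaperone, by 0.55, while the sensor gene Ern1 fell by 0.81. Atf4, the factor of the amino acid response, rose by 0.60. In a list of 28 genes that holds Atf4, its targets and transfer RNA synthetases, 19 were lower and 5, Atf4 among them, higher (median -0.41). At its median level of 7.19 this count is near the 67.7% lower and 14.3% higher of all genes, whose median was -0.24. Among its members Asns had -0.99, Sars -0.86 and Nars -0.71, against Vldlr at 1.63. Of 17 antioxidant genes under NRF2, at a median level of 6.6 and so beside the same shares, 13 were lower and 1 higher.

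Genes of DNA replication were lower under each scaling. In DNA replication 31 of 35 were lower and 1, E2f2 (0.35), higher, with a median of -0.39 and a median level of 6.96. Of all genes at 6 to 8, 67.7% were lower with a median of -0.24. The sliding clamp gene Pcna fell from 8.68, 8.63 and 8.70 to 7.77, 7.91 and 7.73, by 0.87 (SE 0.05), Gins2 by 0.66 and the helicase subunit gene Mcm7 by 0.60. Of 30 genes of G2 and mitosis, at a median level of 7.2, 21 were lower and 3 higher (median -0.23), near the 67.7%, 14.3% and -0.24 of all genes at that level, and after quantile normalization 8 were lower and 10 higher with a median of 0.00. Cdk1, the mitotic kinase, fell by 0.49 and Kif23 by 0.61. In nuclear-encoded oxidative phosphorylation 34 of 46 were lower and 0 higher (median -0.24, median level 6.97), with a median equal to the -0.24 of all genes at that level, 67.7% of which were lower, and with 20 lower and 1 higher under median-ratio factors. Mitochondrially encoded genes were not analysed here.

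**Figure D4:**
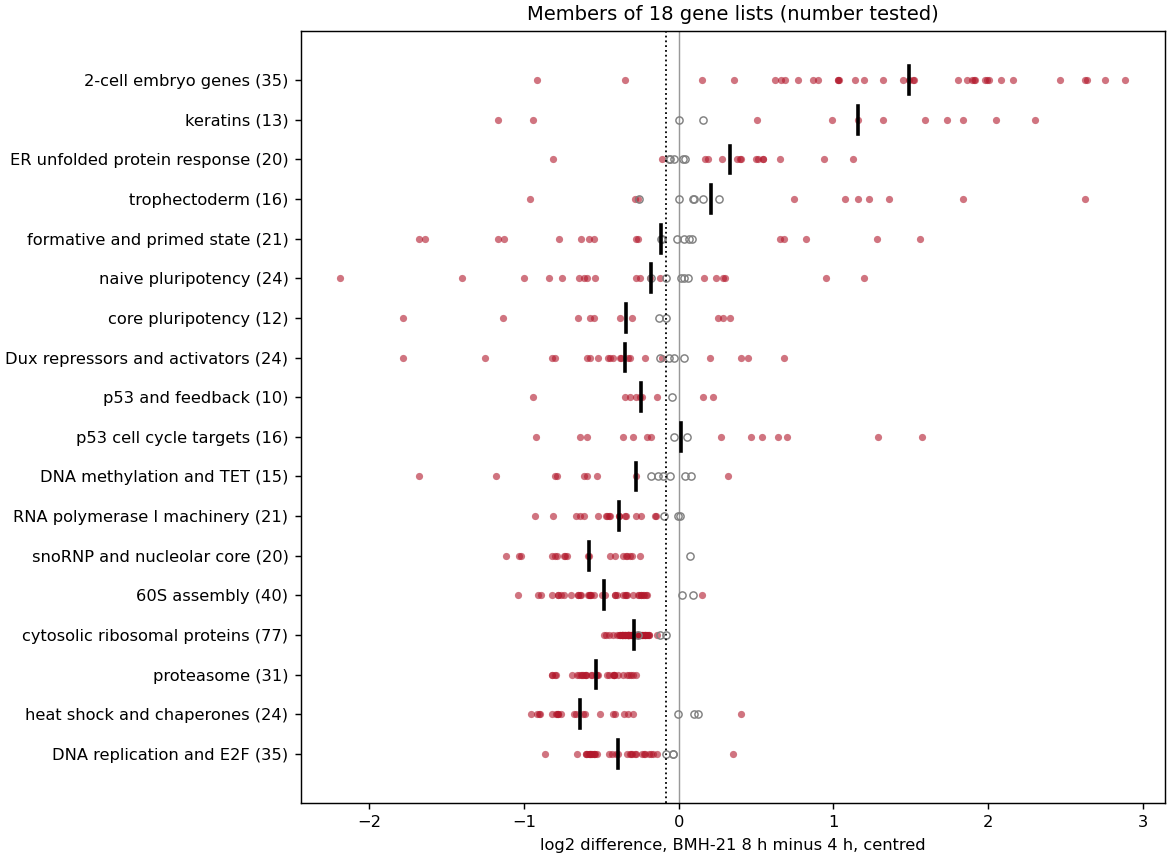
Log2 difference between 8 h and 4 h of BMH-21 (horizontal axis) for each tested member of 18 lists, the number tested in brackets. Filled points are past the limma threshold, open points are not, black bars are list medians and the dotted line is the median of all genes tested (-0.08). The 2-cell list has the highest median (1.49) and the heat shock list the lowest (-0.64).

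Some genes turned between the steps. The 0 to 4 h and 4 to 8 h changes share the 4 h libraries, so they are set side by side with no test of their relation. Sp5 fell by 1.83 to 4 h and rose by 3.43 after it, ending above untreated cells. Zic5 fell by 4.06 and then rose by 1.56. Insm1 stood at 1.90 to 2.02 in untreated cells, 0.40, 0.50 and 0.59 at 4 h and 3.54, 3.36 and 3.48 at 8 h. In the other direction Ahrr, the repressor of the aryl hydrocarbon receptor, rose by 2.27 to 4 h and fell by 1.64 after it, and Rgcc, a cell cycle regulator, rose by 3.60 and fell by 1.62. Cyp1a1, the main target of the aryl hydrocarbon receptor, went from -0.60 to 0.21 in untreated cells to 7.35 to 7.41 at 2 h, 6.13 to 6.16 at 4 h and 5.26, 5.40 and 5.31 at 8 h, a fall by 0.82 (SE 0.16) in the last step. Of the 11 genes of this receptor tested, 6 fell and 3 rose from 4 to 8 h. At their median level of 3.47, 30.2% of all genes were lower and 38.7% higher.

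The first interval shares no library with the last and could be compared with it. After 2 h of BMH-21, 5285 genes (36% of those tested) differed from untreated cells, 462 of them by at least 2-fold upward (3.15%) and 63 downward (0.43%). Of the 462 early rises, 179 (38.7%) rose again from 4 to 8 h and 131 (28.4%) fell, with a median log2 difference of 0.18. Of the 63 early falls, 39 (61.9%) rose from 4 to 8 h and 3 (4.76%) fell, with a median of 0.49. For all genes tested the shares were 28.3% higher and 42.2% lower, so the early falls were more often higher in the last step than genes in general, a description with no test.

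CX-5461 was given at the same dose for the same times, and its 4 and 8 h libraries are separate from those of BMH-21. Over the same interval 8477 genes (57.8%) changed with CX-5461, 3790 higher (25.8%) and 4687 lower (32%), with 307 rises (2.09%) and 326 falls (2.22%) of at least 2-fold. As deposited, 8626 were higher (58.8%) and 712 lower (4.85%), so the direction of this comparison rests on the centring, which shifted it by -0.37 against 0.06 for BMH-21. The difference between the inhibitors in their change from 4 to 8 h passed the threshold for 8824 genes (60.2%), 3514 with a more positive change with BMH-21 (24%) and 5310 with a more negative one (36.2%). As deposited these were 1170 (7.98%) and 9003 (61.4%), and the more positive share of the called genes was 39.8% after centring, 11.5% as deposited, 54.2% with median-ratio factors and 42.8% after quantile normalization. A difference of at least 2-fold was more positive for 1024 genes (6.98%) and more negative for 550 (3.75%). Of the 4151 genes higher with BMH-21 and the 3790 higher with CX-5461, 1666 were shared, 40.1% of the former and 44% of the latter. Of those lower, 2793 were shared, 45.2% and 59.6%. A further 878 genes rose with BMH-21 and fell with CX-5461, and 1009 did the reverse. Among changes of at least 2-fold, 107 rises were shared, 13.2% of those with BMH-21 and 34.9% of those with CX-5461, but only 16 falls, 4.52% and 4.91%. Across the 14666 genes Pearson's r between the 2 changes was 0.25, a description over genes, which are not independent replicates.

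Most 2-cell genes tested rose with both inhibitors. On the centred scale the rise of the Zscan4 genes and Dux was larger with BMH-21, but the centring adds to each such difference, and as deposited those of Zscan4d and Dux were no longer past the threshold. Zscan4c rose by 0.98 with CX-5461, from 2.55, 2.53 and 2.05 to 3.16, 3.35 and 3.55, and the difference between the inhibitors was 1.00 (limma Benjamini-Hochberg adjusted p = 2.7e-05), and 0.57 as deposited (adjusted p = 0.007). Zscan4d rose by 1.03, with a difference of 0.83 (adjusted p = 2.7e-04 in limma), and 0.39 as deposited (adjusted p = 0.087). Dux did not pass the threshold with CX-5461 in this interval, with 1.03, 0.60 and 1.07 at 4 h and 0.70, 0.79 and 0.79 at 8 h, and the difference of 1.17 passed it (limma adjusted p = 0.028), while that of 0.73 as deposited did not (adjusted p = 0.07). Over the list 31 of 35 rose with CX-5461 with a median of 1.04, and the centred difference passed the threshold for 11 upward and 1 downward. Over all genes tested 24% passed it upward and 36.2% downward. The upward count is near that share and is not read as a result about the list. Sp5 rose with both, by 3.43 and 1.92, as did Cacna1e, by 5.29 and 2.63, Hdac9, by 3.30 and 1.76, and Cdx2, by 2.62 and 1.82.

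The inhibitors differed in the stem cell genes. Of the 12 core pluripotency genes, 8 were higher and 3 lower with CX-5461, and the change was more negative with BMH-21 for 10 and more positive for 0 in limma. Nanog rose by 0.60 with CX-5461, from 7.88, 7.88 and 7.79 to 8.46, 8.41 and 8.47, and Esrrb by 0.29, and the differences were -0.90 and -1.12. Sox2 rose with both, by 0.33 and 0.30. Of the 24 naive genes the change was more negative with BMH-21 for 19 and more positive for 2, and of the 21 formative and primed genes for 16 and 2. For all genes tested these shares were 36.2% and 24%. Abundant genes in general fell more with BMH-21: at a level of 8 or more the median was -0.43, against -0.22 with CX-5461. At 6 to 8 it was -0.24 against -0.09. The counts of these lists were not separated from that trend. Lin28a (-0.32), Slc7a3 (-0.32) and Nr0b1 (-0.24) fell far less with CX-5461 than with BMH-21, with differences of -1.47, -1.94 and -1.94. Ubtf differed by 0.01 with CX-5461, and the difference of -0.82 passed the threshold. Mdm2 and Cdkn1a fell more with CX-5461, by 1.05 and 0.48, with differences of 0.82 and 0.31, the latter -0.13 as deposited. Trp73 fell by 2.15 with CX-5461 and by 0.59 with BMH-21. As deposited, without the shifts given above, each of these differences is more negative.

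**Figure D5:**
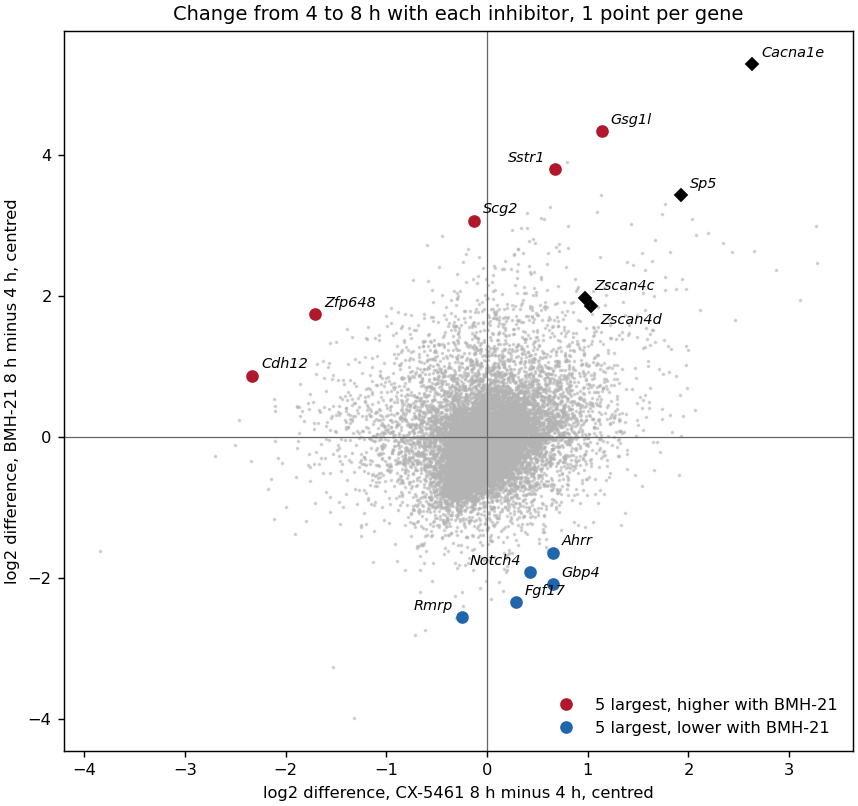
Log2 difference between 8 h and 4 h with CX-5461 (horizontal axis) and BMH-21 (vertical axis), 1 point per gene tested. Coloured points are the 5 genes with the largest difference between the inhibitors in each direction, and diamonds are 4 genes that rose with both. Zscan4c lies at 0.98 and 1.98.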

How the data were processed

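Poly(A) RNA of 21 libraries was measured. The deposited values are log2 expression per gene, which the table's name says the authors normalized with voom. The submitters' processing notes name Trim Galore 0.5.0, TopHat2 2.1.1, R 4.0.5, DESeq2 1.30.1, edgeR 3.32.1, limma 3.46.0 and the build mm10, without their roles. The counting program and annotation are not given in the sources used here. Whole reads were recovered from the deposited log2 values to within 1.7e-08, with an offset of 0.5 reads, and served for depths and median-ratio factors.

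Groups, times and replicates came from the titles, with 0 columns of the table left unmapped. Genes with a value above 0 in at least 3 of 21 columns were kept (14666 of 20900). Each library was centred on its median over them. The fit, in limma 3.58.1 under R 4.3.3, held 1 mean for each of 7 groups and used eBayes with a trend, two-sided, with Benjamini-Hochberg adjustment over all genes tested and a threshold of 0.05. Differences of values with an offset understate changes of low genes. On reads simulated for the comparison of 8 h with 4 h of BMH-21 over 14666 genes, the fit recovered 96 of 100 genes changed by a log2 of 1. It recovered 98 of 100 changed by 2, and 5.8% of its calls were false. The simulation changed only 200 genes, equally up and down, and otherwise gave all libraries the same profile. In the data 70.5% of genes were called, so the 5.8% does not carry over to those calls, nor does it bear on the choice of scaling.

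Genes were named by a rule: the 12 largest rises and falls among genes with a mean of at least 1 in the higher group and no overlap (leaving out symbols that are only a clone or model number), the 6 largest each way among genes with a mean of at least 6, the 5 largest differences each way between inhibitors, the 4 largest changes and the defining members of each of 53 lists, the 4 that turned most each way, and Zscan4c and Zscan4d. Other list members are named from the same fit and were chosen after their values were seen. The members and lists were chosen with earlier results of these data known. Coordinates are from GENCODE M21 (GRCm38, the build mm10), which held 96.4% of the genes tested, and promoters from RefSeq (GRCm38.p6). Promoters were shown for the markers only, because the RefSeq table matched too few of the genes tested for shares over gene sets.

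Same-numbered BMH-21 libraries at 4 and 8 h had correlations of their deviations of 0.083, -0.251 and -0.217, so the numbers do not pair them. Alternatives were other scalings, filters, offsets and variance models, a replicate block and leaving out each library.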

Additional observations from a re-analysis of the deposited data

Results flagged for a closer look

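The change from 4 to 8 h differed between the inhibitors, by a test of that difference in limma, for 8824 genes at a Benjamini-Hochberg adjusted p under 0.05. The genes with the most negative difference, BMH-21 minus CX-5461, were Gbp4 (-2.74), Fgf17 (-2.62), Notch4 (-2.34), Rmrp (-2.30) and Ahrr (-2.29). Gbp4, Fgf17, Notch4 and Ahrr fell with BMH-21 and rose with CX-5461. Rmrp was uneven within groups, and its difference lost the threshold without any of 6 single libraries, with values from -2.16 to -1.52. The genes with the most positive difference were Zfp648 (3.46), Cdh12 (3.21), Gsg1l (3.20), Scg2 (3.20) and Sstr1 (3.12). Zfp648 and Cdh12 rose with BMH-21 (1.75 and 0.88) and fell with CX-5461 (-1.71 and -2.33), on 8 to 30 reads per library at 8 h of CX-5461. The rise of Cdh12 with BMH-21 was 0.81 as deposited and lost the threshold. The difference for Sstr1 was 2.47 without CX-5461 4 h replicate 1 and lost the threshold. Causes of these differences were not tested.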

How the results depend on the processing

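As deposited, 2726 genes were higher from 4 to 8 h of BMH-21. For CX-5461 they were 8626 higher and 712 lower, for the difference between inhibitors 1170 and 9003, and for BMH-21 at 2 h against untreated cells 2891 genes in all, 1243 higher and 1648 lower. With no filter, 1870 genes changed at least 2-fold. Quantile normalization reversed Mdm2 (0.17), Cdkn1a (0.11) and Usp7 (0.09), each still past the threshold. Rrn3 (0.07), Fbl (0.06) and Npm1 (0.05) changed sign too but were then short of the threshold. Polr1a, not past the threshold after centring, passed it upward after quantile normalization (0.37) and with median-ratio factors (0.12). With values below 0 set to 0, Isg15 changed sign (0.06) and was short of the threshold. The causes were not tested. Median-ratio factors turned the order of higher and lower for autophagy (11 and 7), antigen presentation (8 and 5), the Nodal pathway (7 and 4), primitive endoderm (7 and 5), neural (7 and 6), p53 apoptosis targets (5 and 4), fibroblast (4 and 3) and the MYC network (4 and 3). Of the 259 named genes, 253 kept direction and call as deposited, 255 with median-ratio factors and 243 after quantile normalization. Leaving out 1 library gave 9726 to 10206 genes for BMH-21 8 h against 4 h (3804 to 4157 higher, 5891 to 6049 lower, 1104 to 1229 at least 2-fold). It gave 7662 to 7870 for CX-5461, 8312 to 9220 for the difference between inhibitors and 4536 to 4861 for BMH-21 at 2 h. The replicate numbers do not pair the libraries, and a fit with the replicate number as a block gave 10232 genes, 4108 higher and 6124 lower, and changed 0 of the 259 calls. Low genes limit precision: genes with under 30 reads at 4 h have uncertain folds.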

Other observations

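Other lists are given as counts, beside 28.3% higher and 42.2% lower over all genes tested. They are to be read against the shares at the median level of their members, and no group result is drawn. At a level of 4 to 6 (Polycomb, autophagy, cytoskeleton, antigen presentation and homologous recombination) 44.9% of all genes were lower and 27.3% higher. At 2 to 4 (germline, interferon and histone) 30.2% were lower and 38.7% higher. Of 28 genes of the Polycomb complexes, which hold developmental genes silent, 14 were lower and 9 higher. Phf1 fell by 1.08, E130012A19Rik by 1.21, Cbx2 by 0.85 and Ezh2, the methyltransferase, by 0.80, while Phf19, an accessory subunit, rose by 0.92. The median of the list was -0.14, and 0.01 after quantile normalization. Of 18 germline genes 11 were lower and 2 higher, with Mael, a piRNA pathway protein, down by 1.23 and Ddx4 (Vasa) by 0.72. Of 2 Hox genes tested, Hoxb9 rose by 0.46, a call lost as deposited. Of 25 genes of cholesterol and fatty acid synthesis 19 were lower and 2 higher, with the desaturase gene Scd1 down by 0.95. Their median level was 6.17, and 67.7% of all genes at 6 to 8 were lower. In glycolysis and the hypoxia response 13 of 21 were lower and 6 higher (median -0.28, but 0.15 after quantile normalization). Their median level was 8.3, and 88.1% of all genes at 8 or more were lower. The platelet phosphofructokinase gene Pfkp fell by 0.88 and Bnip3 rose by 0.68. Of 26 autophagy and lysosome genes 14 were lower and 8 higher, with Wipi1 up by 0.72, and the median of -0.14 was 0.05 after quantile normalization.

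Genes of antigen presentation split. Nlrc5, the activator of MHC class I genes, rose by 1.73 (4.26, 4.28 and 4.18 to 5.96, 5.85 and 6.10), Tap1 by 0.73 and Usp18, an interferon-induced gene, by 1.71, while Erap1 fell by 0.96, Tapbp by 0.76 and the RNA sensor gene Ddx58 by 1.06. Over the lists 5 of 17 presentation genes were higher and 7 lower, and 3 of 14 interferon genes higher and 7 lower, and median-ratio factors turned the former to 8 and 5. Of 19 SR proteins and CLK kinases of splicing 14 were lower and 3 higher, with Srsf9 down by 0.90. Their median level was 7.56, where 67.7% of all genes were lower and 14.3% higher. Of 20 cytoskeletal and SRF target genes 13 were lower and 6 higher, with Actg1 down by 0.83 and Myl9 by 1.07. Homologous recombination and Fanconi genes had 6 of 26 higher and 6 lower, and histone genes with poly(A) transcripts 4 of 17 higher, among them H1f0 (0.74), and 4 lower, among them H2afz (-0.88).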
